A study of Mus musculus with 16 samples.

Results

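The 10 genes described here respond to glucocorticoids or carry that response, and they were followed by name through whole-liver RNA of mice with or without Klrk1, the gene of the activating receptor NKG2D. They are Nr3c1, Zbtb16, Arrdc3, Fkbp5, Tsc22d3, Sgk1, Dusp1, Cebpd, Klf9 and Rcan1, 10 of the 25719 genes in the expression table. The set was chosen by name with results of these mice already known, and it is headed by Zbtb16 because of its levels in the 4 groups. For Zbtb16 the values are therefore a description without a test, and for the other 9 genes the adjusted p-values describe the spread between mice and are not independent support for the choice.

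The mice formed 4 groups. WT mice of the strain C57BL6J received a normal chow diet (NCD, n = 4) or the steatosis-steatohepatitis diet (SSD, n = 5), a feed enriched in animal fat, fructose and cholesterol, and Klrk1 KO mice (Klrk1-/-, labelled strain NKG2D) received NCD (n = 4) or SSD (n = 3). All mice were male and between 8 and 12 weeks of age when put on their diet, and they were fed it for 3 weeks. The deletion is present in every cell of the animal, each mouse gave 1 library, and whether the Klrk1 KO mice were littermates of the WT mice is not given in the sources used here, so genotype and colony cannot be told apart. The labels name no hormone treatment, and the hour at which the livers were taken is not given in the sources used here.

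Glucocorticoids are steroid hormones of the adrenal cortex. In the cell they bind the glucocorticoid receptor, which is held ready by heat shock protein 90 and its partners, moves to the nucleus and switches genes on or off, in the liver above all genes of glucose, amino acid and lipid metabolism. Several of the induced genes encode brakes: on the receptor itself, on stress kinases or on inflammatory transcription. The secretion of the hormone follows the time of day and stress, and many of its targets also respond to fasting signals, cyclic AMP or cytokines.

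Each mouse had between 19892025 and 28936707 reads counted in genes. The authors' normalized counts, which are used throughout, summed to between 25001171 and 27985228 per mouse on NCD and between 19222033 and 22666465 on SSD. Scaling every mouse to the same total instead put the middle of all genes' log2 fold changes at 0.344 for SSD against NCD in WT mice, 0.254 in Klrk1 KO mice and -0.115 for Klrk1 KO against WT on SSD, so changes are stated relative to the bulk of genes. Klrk1 itself stood at 22.9, 20.1, 28.7 and 21 normalized counts in the WT mice on NCD and at 57.8, 32.9, 34.3, 71.1 and 34.3 on SSD, against 2.3, 4.98, 8.71 and 1.23 in the Klrk1 KO mice on NCD and 0.966, 1.61 and 4.29 on SSD, without overlap between genotypes. The summed level of 6 hepatocyte markers was 2263420 to 2579110 normalized counts in WT mice on NCD, 1430880 to 1868060 in WT mice on SSD, 2188700 to 2942790 in Klrk1 KO mice on NCD and 1976080 to 2131560 on SSD. In whole liver, fewer cells of a type and less RNA per cell cannot be told apart.

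The stretches of DNA just before the start sites of 6 members are shown. Zbtb16, Arrdc3 and Fkbp5 are shown because on NCD they were higher in every Klrk1 KO mouse than in every WT mouse, Rcan1 and Cebpd because they were lower in every Klrk1 KO mouse on both diets, and Dusp1 because it holds both of the motifs found. They were read from GRCm39, the build of the expression table, on the strand of each gene and 5′ to 3′, in a window of 250 bases before the start of the canonical transcript. Where another transcript of the gene begins inside this window, the run stops before it, so 45 bases are left out for Arrdc3, 13 for Dusp1 and 114 for Rcan1. Zbtb16 (chr9:48747658-48747907, minus strand), Arrdc3 (chr13:81031204-81031408, plus strand) and Cebpd (chr16:15704900-15705149, plus strand) hold none of the motifs searched. Fkbp5 (chr17:28705153-28705402, minus strand), Dusp1 (chr17:26727507-26727743, minus strand) and Rcan1 (chr16:92197080-92197215, minus strand) hold the letters in capitals, which mark CACGTG, the E-box, in Fkbp5 and Dusp1 and TGACGTCA, the cyclic AMP response element, in Dusp1 and Rcan1.
Zbtb16: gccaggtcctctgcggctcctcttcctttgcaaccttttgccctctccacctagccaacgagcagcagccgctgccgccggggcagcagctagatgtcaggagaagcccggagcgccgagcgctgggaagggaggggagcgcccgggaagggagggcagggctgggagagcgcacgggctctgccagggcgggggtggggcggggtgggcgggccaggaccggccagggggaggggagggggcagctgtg
Arrdc3: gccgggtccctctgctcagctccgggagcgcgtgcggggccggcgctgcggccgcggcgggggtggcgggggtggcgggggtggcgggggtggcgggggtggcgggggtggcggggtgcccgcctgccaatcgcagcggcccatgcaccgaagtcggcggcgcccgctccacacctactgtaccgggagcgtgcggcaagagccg
Fkbp5: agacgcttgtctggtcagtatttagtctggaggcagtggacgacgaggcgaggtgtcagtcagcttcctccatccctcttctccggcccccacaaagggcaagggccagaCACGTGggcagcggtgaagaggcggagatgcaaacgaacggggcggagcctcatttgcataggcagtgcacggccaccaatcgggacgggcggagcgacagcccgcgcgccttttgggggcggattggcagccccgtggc
Dusp1: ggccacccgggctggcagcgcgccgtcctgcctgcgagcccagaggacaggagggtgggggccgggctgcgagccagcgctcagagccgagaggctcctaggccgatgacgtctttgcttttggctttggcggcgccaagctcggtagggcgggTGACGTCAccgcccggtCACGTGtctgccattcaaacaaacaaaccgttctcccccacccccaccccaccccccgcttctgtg
Rcan1: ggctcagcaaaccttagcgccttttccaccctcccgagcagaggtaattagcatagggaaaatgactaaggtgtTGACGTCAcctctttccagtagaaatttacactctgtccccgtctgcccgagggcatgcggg
Cebpd: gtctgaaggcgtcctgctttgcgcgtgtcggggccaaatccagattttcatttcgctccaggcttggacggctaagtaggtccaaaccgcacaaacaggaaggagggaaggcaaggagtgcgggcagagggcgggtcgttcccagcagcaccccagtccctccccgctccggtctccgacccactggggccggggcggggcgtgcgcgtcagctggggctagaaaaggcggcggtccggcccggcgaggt

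The E-box of Fkbp5 begins 140 bases before the start and that of Dusp1 begins 79 bases before it. The cyclic AMP response element begins 96 bases before the start of Dusp1 and 176 bases before that of Rcan1. Over the 25505 genes whose window could be read, 5.81% hold CACGTG and 1.5% hold TGACGTCA on either strand, against 2 of the 10 members for each motif. The single-arm site of the glucocorticoid response element, AGAACA on either strand, is present in 15.3% of all windows and in 0 of the 10 members. The full palindrome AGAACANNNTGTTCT, which contains that arm on both strands, is present in 0 of the 25505 windows. Only the canonical start of each gene was used, and other starts were not searched. In the expression table Rcan1, Fkbp5 and Dusp1, on the minus strand, begin at bases 92267755, 28736501 and 26781102, outside their windows. These matches describe letters in a short window and show neither binding nor its absence.

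The receptor gene Nr3c1 (ENSMUSG00000024431, chr18:39543598-39652474, minus strand) varied least of the 10 members between groups. Its level was 1042 ± 92.7 normalized counts (SD, n = 4) in WT mice on NCD, 1030.1 ± 62.3 (SD, n = 5) in WT mice on SSD, 989.8 ± 37.9 (SD, n = 4) in Klrk1 KO mice on NCD and 999 ± 40.8 (SD, n = 3) in Klrk1 KO mice on SSD. Single mice ranged from 952 to 1172 in the WT NCD group and lay within that range in the other 3 groups. All 4 groups overlapped. The log2 fold changes of Nr3c1 lay between -0.07 and 0.01 in the 4 comparisons, and the lowest adjusted p was 0.615. With every mouse scaled to the same total, its log2 fold change for SSD against NCD in WT mice was 0.33, next to the median of 0.344 of all genes under that scaling. Of 13068 genes, the 5 with the pattern most like Nr3c1 over the 16 mice were Riok3, Kdelr1, Tmub2, Abhd16a and Btf3, with a root mean square difference of 0.0537 to 0.0695 on the centred log2 scale.

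Zbtb16 (ENSMUSG00000066687, chr9:48565597-48747522, minus strand) encodes PLZF, a zinc finger repressor that glucocorticoids strongly induce in many tissues and that also defines innate-like lymphocytes. In the WT mice on NCD it stood at 113, 141, 111 and 140.1 normalized counts. On SSD the WT mice reached 479.6, 542, 496, 449 and 647. The Klrk1 KO mice on NCD had 1313, 805, 1402 and 811, and those on SSD had 745, 482 and 940.3. Every WT mouse on NCD was below every other mouse of the study, and every Klrk1 KO mouse on NCD was above every WT mouse on SSD. The Klrk1 KO mice on SSD overlapped with both of those groups.

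The group mean of Zbtb16 was 126 ± 16.5 (SD, n = 4) in WT mice on NCD and 1083 ± 319 (SD, n = 4) in Klrk1 KO mice on the same diet, 8.57 times as much. Between the genotypes on NCD it differed by 3.05 on the log2 scale (standard error 0.18), the 6th highest log2 fold change of 12845 genes. The effect of diet had opposite signs in the genotypes. SSD went with 4.14 times the NCD mean in WT mice, a change of 2.04 on the log2 scale (standard error 0.13). Without Klrk1 the same diet went with a change of -0.59 on the log2 scale (standard error 0.24), from 1083 ± 319 (SD, n = 4) to 722 ± 230.0 (SD, n = 3). The diet effect in Klrk1 KO mice minus that in WT mice was thus -2.63 on the log2 scale (standard error 0.29). On SSD the genotypes differed by a change of 0.42 on the log2 scale (standard error 0.19). These differences of Zbtb16 kept their direction under every alternative setting. The alternatives used the same mice whose levels chose the gene, so this is a description and not support.

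**Figure D1:**
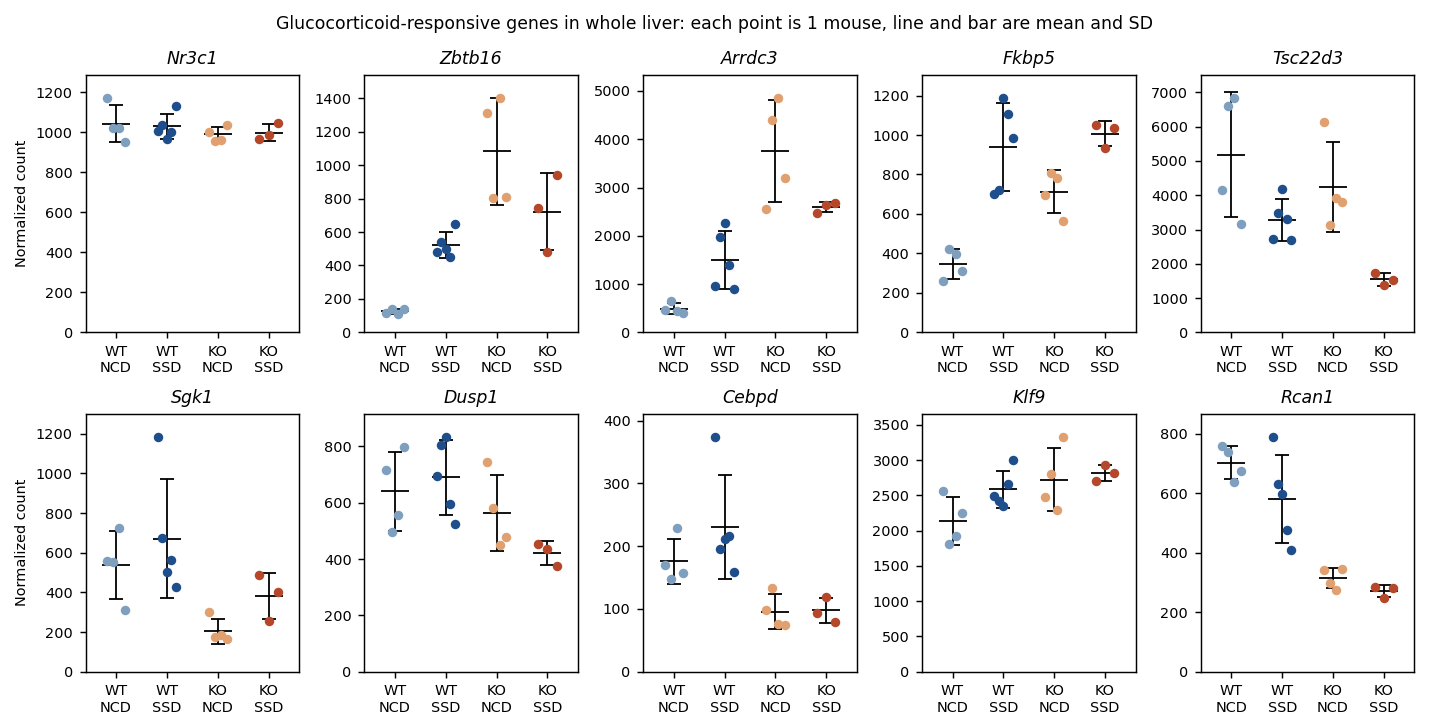
Normalized count (linear axis from 0) of each of the 10 genes in the 4 groups of mice. Each point is 1 mouse, and the line and bar are the group mean and SD. Zbtb16 and Arrdc3 are lowest in every WT mouse on NCD, Nr3c1 stays within 952 to 1172 normalized counts throughout, and Cebpd and Rcan1 are lower in Klrk1 KO than in WT mice on both diets.

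Arrdc3 (ENSMUSG00000074794, chr13:81031503-81044161, plus strand), an arrestin-domain protein that directs receptors to degradation and whose RNA rises with glucocorticoids and fasting, had the pattern nearest to Zbtb16. The WT mice on NCD had 470.3, 647, 444 and 406 normalized counts. On SSD the WT mice had 951, 1967, 2260.3, 1395 and 903. The Klrk1 KO mice were at 2561, 4402, 4854 and 3194 on NCD and 2480.1, 2632 and 2687 on SSD. The WT NCD mice were below all others, the WT SSD mice came next, and both Klrk1 KO groups, which overlapped with each other, were above every WT mouse. Arrdc3 rose 7.63 times in Klrk1 KO against WT mice on NCD (2.91 on the log2 scale with a standard error of 0.19, adjusted p = 3.53e-06 in limma's test), the 7th highest log2 fold change of 12845 genes. It rose 3.04 times on SSD in WT mice (1.53 on the log2 scale with a standard error of 0.26, adjusted p = 0.000999). On SSD the difference between genotypes was 0.89 on the log2 scale (standard error 0.28) and was not called (adjusted p = 0.104), although all 3 Klrk1 KO mice were above the 5 WT mice. It was called in DESeq2 (adjusted p = 0.0400) and with all 4 groups in 1 limma model (adjusted p = 0.0493).

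The diet effect on Arrdc3 differed between genotypes. In Klrk1 KO mice SSD went with a change of -0.48 on the log2 scale (standard error 0.18, adjusted p = 0.0611), and its difference from that of WT mice was -2.01 (standard error 0.37, adjusted p = 0.0171 for the interaction). Without Klrk1 KO SSD replicate 1 the adjusted p of the interaction was 0.051. Without Klrk1 KO NCD replicate 1 the fall in Klrk1 KO mice was called (-0.653, adjusted p = 0.00606).

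Fkbp5 (ENSMUSG00000024222, chr17:28618068-28736501, minus strand) encodes FKBP51, a co-chaperone that binds the receptor complex and lowers its affinity for the hormone, and it is a standard readout of receptor activity. WT mice on NCD had 259, 423, 399 and 309 normalized counts and WT mice on SSD had 699, 719.8, 1188, 1104 and 984. Klrk1 KO mice had 696, 806, 783 and 565 on NCD and 1052, 932 and 1038 on SSD. The WT NCD mice were again below all other mice, and the highest values were spread over both SSD groups. Fkbp5 rose 2.7 times on SSD in WT mice (1.43 on the log2 scale with a standard error of 0.19, adjusted p = 0.000181) and 2.05 times in Klrk1 KO against WT mice on NCD (1.05 on the log2 scale with a standard error of 0.16, adjusted p = 0.00207). SSD went with 0.51 on the log2 scale in Klrk1 KO mice (adjusted p = 0.00846), which is less than 1.5-fold. With every mouse scaled to the same total this was 0.767 and was called (adjusted p = 0.000599), beside a median of 0.254 over all genes. Unlike Zbtb16 and Arrdc3, the mean of Fkbp5 was therefore higher on SSD than on NCD in both genotypes, and its interaction of -0.91 had an adjusted p of 0.0948 in limma and was called in DESeq2 (-0.935, adjusted p = 0.0216).

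Tsc22d3 (ENSMUSG00000031431, chrX:139440277-139501408, minus strand) encodes GILZ, a leucine zipper protein through which glucocorticoids restrain NF-κB and AP-1. Its group mean was lowest in Klrk1 KO mice on SSD, the group with the highest mean of Fkbp5. Its values on NCD were wide, 4143, 6595, 6838 and 3148 normalized counts in WT mice and 6144, 3128, 3922 and 3792 in Klrk1 KO mice. On SSD they were 2736, 3493, 4191, 3295 and 2701 in WT mice and 1740.3, 1376 and 1519.7 in Klrk1 KO mice. All 3 Klrk1 KO mice on SSD were below every other mouse, while the other 3 groups overlapped. Tsc22d3 fell by 1.42 on the log2 scale with SSD in Klrk1 KO mice (standard error 0.18, adjusted p = 0.000168). It fell by 1.07 in Klrk1 KO against WT mice on SSD (standard error 0.15, adjusted p = 0.00752). For SSD against NCD in WT mice Tsc22d3 was at -0.60 on the log2 scale (standard error 0.22, adjusted p = 0.0483), and this call was lost in 10 of 19 alternatives, with adjusted p up to 0.335. Leaving out WT NCD replicate 1 gave 0.0597, replicate 2 gave 0.141 and replicate 3 gave 0.148, while leaving out WT SSD replicate 1 gave 0.0746, replicate 2 gave 0.0652, replicate 4 gave 0.0776 and replicate 5 gave 0.0894. Between the genotypes on NCD the log2 fold change of Tsc22d3 was -0.26 (adjusted p = 0.491).

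Sgk1 (ENSMUSG00000019970, chr10:21758083-21875802, plus strand) encodes a kinase induced by gluco- and mineralocorticoids that regulates ion transport and insulin signalling. WT mice had 561, 555, 723 and 309 normalized counts on NCD and 1182, 676, 504, 566 and 426 on SSD. Klrk1 KO mice had 299, 175, 184 and 162 on NCD and 488, 258 and 403 on SSD. The Klrk1 KO mice on NCD lay below all WT mice of either diet, and WT SSD replicate 1 was the highest of all. Sgk1 fell by 1.36 on the log2 scale in Klrk1 KO against WT mice on NCD (standard error 0.24, adjusted p = 0.00418), opposite to Zbtb16, Arrdc3 and Fkbp5 in the same mice. With SSD it rose by 0.89 in Klrk1 KO mice (standard error 0.23, adjusted p = 0.014), although 1 mouse on SSD lay below the highest on NCD. This call was lost without Klrk1 KO SSD replicate 1 (adjusted p = 0.0754), without Klrk1 KO SSD replicate 3 (0.0621) and with all 4 groups in 1 model (0.0527). In WT mice the diet effect was 0.29 (standard error 0.29, adjusted p = 0.461) and was 0.06 without WT SSD replicate 1. On SSD the genotypes differed by -0.76 (standard error 0.31, adjusted p = 0.18).

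Rcan1 (ENSMUSG00000022951, chr16:92188841-92267755, minus strand), an inhibitor of the phosphatase calcineurin, separated the genotypes on both diets. WT mice had 757, 739, 639 and 675 normalized counts on NCD and 788, 632, 599, 476 and 407 on SSD, and Klrk1 KO mice had 342, 299, 274 and 344 on NCD and 283, 247 and 280.3 on SSD. Every Klrk1 KO mouse was below every WT mouse. Rcan1 fell by 1.16 on the log2 scale in Klrk1 KO against WT mice on NCD (standard error 0.11, adjusted p = 6.43e-05) and by 1.07 on SSD (standard error 0.19, adjusted p = 0.0192). Diet moved it by -0.31 in WT mice and -0.22 in Klrk1 KO mice, with adjusted p of 0.159 and 0.173.

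Cebpd (ENSMUSG00000071637, chr16:15705150-15708895, plus strand), a transcription factor of the acute phase response that glucocorticoids and interleukin 6 both induce, was likewise lower in every Klrk1 KO mouse than in every WT mouse. WT mice had 170.0, 148, 228 and 157 normalized counts on NCD and 373, 195, 211, 217 and 158 on SSD, and Klrk1 KO mice had 98.8, 133, 75.9 and 73.8 on NCD and 93.7, 119.7 and 79.7 on SSD. The genotypes did not overlap, and WT SSD replicate 1 stood far above its group. Cebpd fell by 0.90 in Klrk1 KO against WT mice on NCD (standard error 0.20, adjusted p = 0.0139) and by 1.19 on SSD (standard error 0.25, adjusted p = 0.0347). Without WT SSD replicate 1 the fall on SSD was -1.002 with an adjusted p of 0.00765. The diet effects on Cebpd were 0.35 in WT mice (adjusted p = 0.229; 0.163 without WT SSD replicate 1, and 0.695 with an adjusted p of 0.0265 when every mouse was scaled to the same total) and 0.06 in Klrk1 KO mice (adjusted p = 0.875).

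Dusp1 (ENSMUSG00000024190, chr17:26724564-26781102, minus strand) encodes a phosphatase that switches off p38 and JNK kinases. WT mice ranged from 495 to 798 normalized counts on NCD and from 523 to 833 on SSD, and Klrk1 KO mice from 450.2 to 744 on NCD and from 375 to 454 on SSD. All 3 Klrk1 KO mice on SSD were below every WT mouse of either diet, and the remaining groups overlapped. Dusp1 fell by 0.69 in Klrk1 KO against WT mice on SSD (standard error 0.15, adjusted p = 0.043), a call that was lost with quantile scaling (-0.698, adjusted p = 0.0547). In the other 3 comparisons its log2 fold change lay between -0.39 and 0.11, and the lowest adjusted p was 0.0785.

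Klf9 (ENSMUSG00000033863, chr19:23118590-23145498, plus strand) encodes a zinc finger repressor that is an early target of the receptor. Its values ranged from 1804 to 2563 normalized counts in WT mice on NCD and from 2345 to 3005 on SSD, and from 2298 to 3322 in Klrk1 KO mice on NCD and from 2706 to 2936 on SSD. Neighbouring groups overlapped. The largest log2 fold change of Klf9 was 0.35 (standard error 0.13, adjusted p = 0.0939), between the genotypes on NCD, and it was not called in any comparison. With every mouse scaled to the same total it was called for SSD against NCD in WT mice, at 0.627 beside a median of 0.344 over all genes.

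On SSD the calls between genotypes depended on single mice, while the log2 fold changes stayed close. When 1 mouse was left out at a time, the adjusted p of Dusp1 rose above 0.05 in 6 fits, that of Cebpd in 6 and that of Rcan1 in 4. Leaving out Klrk1 KO SSD replicate 1, 2 or 3 ended all of these calls, with adjusted p of 0.131, 0.129 and 0.146 for Dusp1, 0.142, 0.0755 and 0.126 for Cebpd and 0.0873, 0.0908 and 0.0786 for Rcan1. Leaving out WT SSD replicate 3 gave 0.0816, 0.0694 and 0.0501 for the same 3 genes, replicate 2 gave 0.0847 for Dusp1 and 0.0628 for Cebpd, and replicate 4 gave 0.0573 and 0.0621. In the fits that lost a call the log2 fold changes were -0.748 to -0.61 for Dusp1, -1.346 to -1.056 for Cebpd and -1.1 to -1.003 for Rcan1. The call of Tsc22d3 held in each of these fits.

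**Figure D2:**
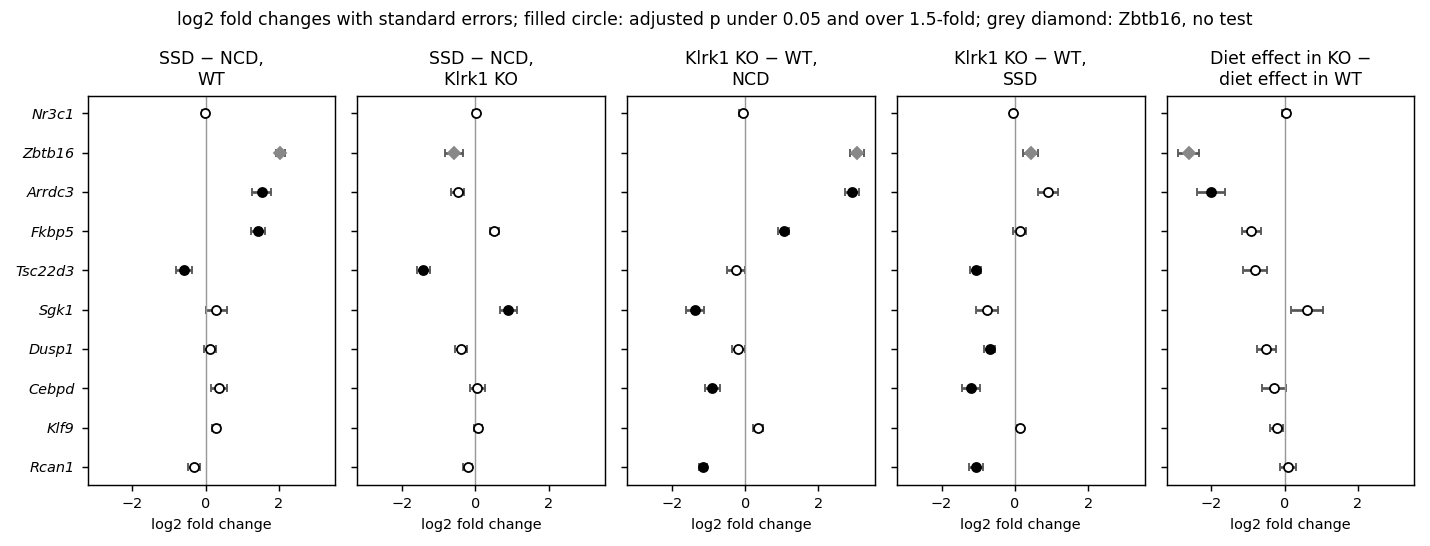
Log2 fold change (x axis, with its standard error as bars) of the 10 genes in the 4 comparisons and in the interaction, from limma's fits across all genes. Filled circles have an adjusted p under 0.05 and a change over 1.5-fold, open circles do not, and the grey diamond is Zbtb16, which is shown without a test. In the comparison of genotypes on NCD, Zbtb16 (3.05), Arrdc3 (2.91) and Fkbp5 (1.05) lie to the right and Sgk1 (-1.36), Rcan1 (-1.16) and Cebpd (-0.90) to the left.

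By the thresholds of the study's methods (adjusted p under 0.05 and over 1.5-fold) and with Zbtb16 left out of the counts, 2 of the other 9 members were called higher and 3 lower in Klrk1 KO against WT mice on NCD, where 2.92% and 2.87% of 12845 genes were called higher and lower. For SSD against NCD in WT mice the counts were 2 higher and 1 lower, beside 11.9% and 7.32% of 13091 genes. Among Klrk1 KO mice SSD went with 1 of the 9 higher and 1 lower, beside 6.54% and 6.6% of 12904 genes. On SSD, 0 of the 9 were called higher and 4 lower in Klrk1 KO against WT mice, beside 0.709% and 1.42% of 13116 genes. The number of all genes called there fell to 15 higher and 30 lower without Klrk1 KO SSD replicate 1, from 93 and 186. In that comparison 1 member was higher at an unadjusted p under 0.05 in limma, and DESeq2 called 1 higher and edgeR 0. The interaction was called for 1 of the 9, Arrdc3, in the lower direction, and DESeq2 called 2, Arrdc3 and Fkbp5. In the higher direction it was called for 0 by limma, edgeR or DESeq2 or at an unadjusted p under 0.05. Of 13068 genes 0.559% were called lower and 0.291% higher for the interaction. Since the members were chosen with these comparisons known, nothing is read from the counts. The median log2 fold change over the 10 members was 0.285 for SSD against NCD in WT mice, -0.101 in Klrk1 KO mice, -0.367 for Klrk1 KO against WT on SSD and -0.129 on NCD, against medians of all genes between -0.002 and 0.002. These medians include Zbtb16, whose levels were known when it was chosen, so nothing is read from them either.

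The members thus fell into different orders over the groups. In Zbtb16 and Arrdc3 the means went up from WT NCD over WT SSD and Klrk1 KO SSD to Klrk1 KO NCD. In Fkbp5 both SSD groups were highest, and in Tsc22d3 both were lowest. Cebpd, Rcan1, Sgk1 and Dusp1 had both Klrk1 KO groups below both WT groups, although for Sgk1 and Dusp1 neighbouring groups overlapped. Per kilobase of gene length, the mean level of Tsc22d3 was the highest of the members in WT mice on NCD, at 3177 normalized counts per kilobase, and that of Zbtb16 was the lowest, at 33.2. In Klrk1 KO mice on NCD, Zbtb16 reached 284 per kilobase and stood above Cebpd (45.7), Sgk1 (150.3) and Rcan1 (193), which it had not done in WT mice on NCD (84.2, 393 and 432).

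Besides Arrdc3 (root mean square difference of 0.531 on the centred log2 scale), the genes whose pattern over the 16 mice was most like that of Zbtb16 were Nr0b2 (0.533), Spry4 (0.570), Trpv4 (0.657) and Slc25a34 (0.682), out of 13068 genes. Nr0b2 encodes SHP, a nuclear receptor without a DNA-binding domain that represses bile acid synthesis, and it went from 668, 619, 515 and 802 normalized counts in WT mice on NCD to 1228, 2097, 1777, 1191 and 1246 on SSD. Nr0b2 of Klrk1 KO mice stood at 3059, 2128, 2355 and 2518 on NCD and at 2216, 1005 and 2013 on SSD. Spry4, an inhibitor of growth factor signalling, had group means of 51.1 and 116 in WT mice and 178 and 195 in Klrk1 KO mice, on NCD and SSD respectively. The WT mice on NCD were the lowest group for all 5 genes. Since these genes were picked for likeness, their pattern is not tested.

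**Figure D3:**
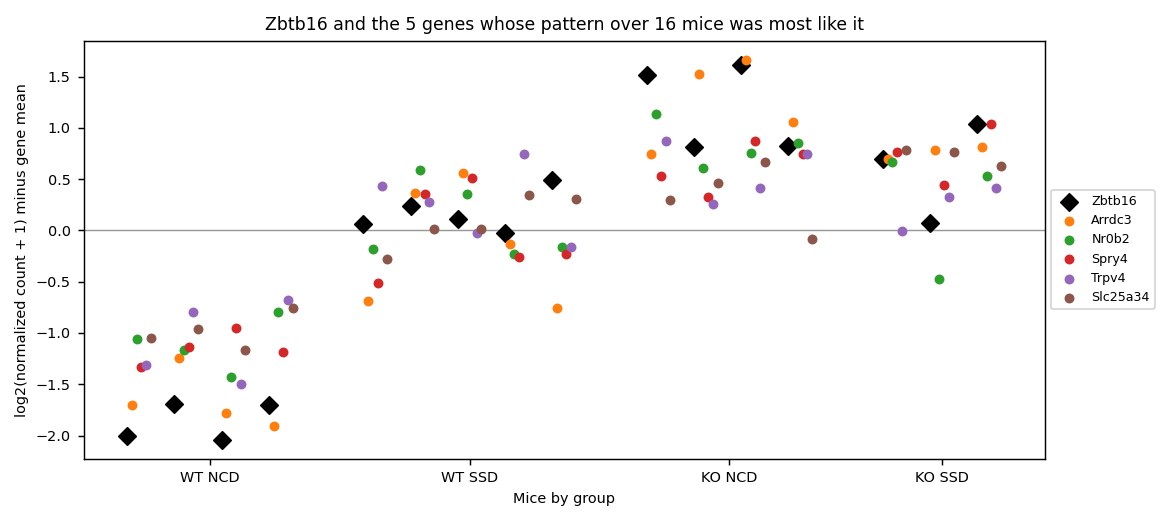
Log2(normalized count + 1) minus the gene's mean over the 16 mice (y axis) for Zbtb16 (diamonds) and the 5 genes most like it (circles). Each column of symbols is 1 mouse, sorted by group. All 6 genes are below their mean in every WT mouse on NCD, and Zbtb16 is above it in every Klrk1 KO mouse.

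Other genes of the pathway were grouped in 6 lists. Of the 7 genes for the supply and removal of the hormone and for the mineralocorticoid receptor, 6 passed the minimum level, and in WT mice Hsd11b1, the enzyme that regenerates active glucocorticoid in the liver, fell by 0.75 on SSD (standard error 0.25, adjusted p = 0.0338). Akr1d1, a reductase that inactivates steroids, fell by 1.19 (adjusted p = 8.69e-05), and the efflux pump gene Abcb1a rose by 1.22 (adjusted p = 0.0204). Abcb1a also rose in Klrk1 KO mice on SSD, by 1.22 (adjusted p = 0.00321). Between the genotypes 0 of the 6 were called on either diet in limma's test, in edgeR or in DESeq2. Of all genes limma called 2.92% higher and 2.87% lower on NCD and 0.709% and 1.42% on SSD, so nothing is read from this count. In limma 2 of the 6 on each diet had an unadjusted p under 0.05, both higher on SSD and both lower on NCD. Serpina6, which encodes the carrier of corticosteroids in plasma, had 3608 ± 218 (SD, n = 4) normalized counts in WT mice on NCD and 4344 ± 1222 (SD, n = 4) in Klrk1 KO mice on NCD (log2 fold change 0.23, adjusted p = 0.361). On SSD it had 4278 ± 819 (SD, n = 5) in WT and 6015 ± 739 (SD, n = 3) in Klrk1 KO mice (log2 fold change 0.51, adjusted p = 0.0949).

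Several chaperone genes of the receptor were lower without Klrk1. Of 18 chaperone and coregulator genes, 5 were called lower in Klrk1 KO against WT mice on NCD (2.87% of all genes), with a median log2 fold change of -0.252 over the list against 0.002 over all genes. They were Hsp90aa1 (-1.31, adjusted p = 0.000455) and Hsp90ab1 (-0.83, 0.00256), the forms of heat shock protein 90, Hspa8 (-1.07, 0.000159), and the co-chaperone genes Stip1 (-0.73, 0.00127) and Dnaja1 (-0.66, 0.00127). These proteins serve many clients besides the receptor. Hsp90aa1 stood at 4018, 3635, 3676 and 3014 normalized counts in WT mice and 1861, 1325, 1055 and 1651 in Klrk1 KO mice on NCD, without overlap. On SSD, Hsp90aa1 (-0.85, adjusted p = 0.00498) and Hspa8 (-0.80, 0.0412) were called lower in Klrk1 KO mice (1.42% of all genes) and 16 of the 18 genes were not called, while edgeR called 1 lower. Diet moved Fkbp4 (-0.66, adjusted p = 0.000726) and Hspa8 (-0.82, 0.000289) down in WT mice and the corepressor gene Nrip1 up in Klrk1 KO mice (0.97, 0.000408).

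Other genes that glucocorticoids induce did not share 1 direction. Of 26 such genes 25 were tested, and in Klrk1 KO against WT mice on NCD 4 were called higher and 4 lower, beside 2.92% and 2.87% of all genes. The largest rises were in Ppargc1a (1.28, adjusted p = 0.00121), a coactivator of gluconeogenesis, the cell cycle inhibitor Cdkn1a (1.26, 0.00537) and the phosphatidate phosphatase Lpin1 (1.22, 0.00117). The largest falls were in G6pc (-1.49, adjusted p = 0.00122), the last enzyme of gluconeogenesis, Igfbp1 (-1.29, 0.000957), which binds insulin-like growth factors, and the deubiquitinase Usp2 (-1.08, 0.00905). The median over the list was -0.213. Tat, tyrosine aminotransferase and a classical glucocorticoid target of the liver, stood at 62946, 76438, 72017 and 52245 normalized counts in WT and 52473, 32392, 28612 and 42533 in Klrk1 KO mice on NCD. Its mean was lower in Klrk1 KO mice (39002 against 65911), opposite in direction to Zbtb16, Arrdc3 and Fkbp5, and the groups overlapped at their edges.

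With SSD in WT mice 10 of these 25 genes were called higher and 2 lower, beside 11.9% and 7.32% of all genes. Mfsd2a, a lysolipid transporter, rose by 2.99 (adjusted p = 1.2e-05), Cdkn1a by 2.52 (8.37e-06) and Lcn2, an acute phase protein, by 2.46 (0.0121), whereas Tat (-2.05, 4.03e-05) and the serine dehydratase Sds (-0.96, 0.00135) fell. In Klrk1 KO mice 5 were called higher on SSD and 5 lower (6.54% and 6.6% of all genes), led by Usp2 (1.61, adjusted p = 0.00114), Mt2 (1.57, 0.0189) and Mfsd2a (1.56, 0.00143) and by Tat (-2.15, 3.47e-05), Ddit4 (-1.97, 0.000389) and Lpin1 (-1.48, 3.78e-05). In the same comparison edgeR called 5 higher and 4 lower, and DESeq2 called 3 higher and 4 lower. On SSD 3 were called lower in Klrk1 KO against WT mice (1.42% of all genes), namely Lcn2 (-2.76, adjusted p = 0.043), Per1 (-1.24, 0.0148) and Errfi1 (-1.10, 0.0491), where edgeR called 1 lower and DESeq2 called 9 lower and 1 higher. The interaction was called for Cdkn1a (-2.19, adjusted p = 0.0181) and Lpin1 (-1.93, 0.0158), both lower (0.559% of all genes), as for Arrdc3. Cdkn1a had 254, 408, 499 and 296 normalized counts in WT mice on NCD and 2985, 2013, 2081, 1997 and 1375 on SSD, against 1330.3, 804, 772 and 621 in Klrk1 KO mice on NCD and 1499, 619 and 1316 on SSD.

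Some genes that glucocorticoids repress, and some of the immediate early response, rose with SSD in WT mice. Of 12 inflammatory genes 8 were tested, and 3 of them, Vcam1 (1.53, adjusted p = 0.00283), Ccl2 (1.37, 0.0398) and Cxcl10 (1.25, 0.00205), rose, beside 11.9% of all genes. Cxcl1 went from a mean of 999 to 236 normalized counts with SSD in WT mice (-1.45, adjusted p = 0.182), with WT mice on NCD spread from 65.4 to 1856, and edgeR and DESeq2 each called 1 gene of the list lower there. With SSD in Klrk1 KO mice, Vcam1 (0.94, adjusted p = 0.00261) and Icam1 (0.84, 0.000491) rose and Cxcl1 fell (-1.57, 5.62e-05), beside 6.54% and 6.6% of all genes. Klrk1 KO mice had less Cxcl10 than WT mice on SSD (-1.25, adjusted p = 0.0293) and less Icam1 on NCD (-0.73, 0.0362), beside 1.42% and 2.87% of all genes called lower. On SSD DESeq2 called 4 of the list lower and edgeR 1, beside 515 and 143 of 13116 genes. The list's median was -1.07 on SSD and -0.542 on NCD. Of the 12 immediate early genes, which stress kinases induce within minutes, 6 rose with SSD in WT mice, beside 11.9% of all genes. They were Atf3 (2.96, adjusted p = 3.53e-05), Egr1 (2.29, 0.000228), Ier3 (1.88, 0.00169), Klf6 (1.74, 0.000318), Fos (1.36, 0.00739) and Jun (0.98, 0.0286). On SSD against NCD in Klrk1 KO mice, Ier3 (1.12, adjusted p = 0.0096), Jun (0.75, 0.00148) and Klf6 (0.65, 0.0188) rose and Btg2 fell (-0.87, 0.00346), beside 6.54% and 6.6% of all genes. The interaction was called for Atf3 (-2.35, 0.0166), beside 0.559% of all genes called lower. On SSD, Atf3 (-2.82, adjusted p = 0.00498), Fos (-1.62, 0.0197) and Jun (-1.02, 0.0474) were called lower in Klrk1 KO than in WT mice, beside 1.42% of all genes. There edgeR called 2 of the list lower and DESeq2 called 7, beside 143 and 515 of 13116 genes. On NCD, Egr1 (1.62, adjusted p = 0.016) and Ier2 (0.75, 0.00829) were called higher and Myc (-1.80, 0.0375) lower, beside 2.92% and 2.87% of all genes.

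Clock genes were described because several are also targets of glucocorticoids. Of 17, Nr1d1 (1.22, adjusted p = 0.0113) and Npas2 (0.64, 0.0104) were called higher and Per2 (-1.19, 0.00117) and Per3 (-1.30, 0.0124) lower in Klrk1 KO against WT mice on NCD, beside 2.92% and 2.87% of all genes. With SSD in WT mice 1 was called higher and 3 lower, beside 11.9% and 7.32% of all genes. Here Npas2 (0.61, adjusted p = 0.00649) was called higher and Per2 (-1.46, 0.000243), Cry2 (-0.76, 0.000513) and Per3 (-0.75, 0.0219) lower. Per2 also fell on SSD in Klrk1 KO mice (-1.07, adjusted p = 6.64e-05), beside 6.6% of all genes. On SSD it was lower in Klrk1 KO than in WT mice (-0.80, 0.0476), beside 1.42% of all genes. In that comparison edgeR called 0 clock genes, and DESeq2 called 1 lower and 1 higher, beside 515 and 154 of 13116 genes. Per2 stood at 559.6, 825, 1009 and 1003 normalized counts in WT mice on NCD, at 260.4, 375, 383, 220.3 and 299 on SSD, at 406, 338, 323 and 387 in Klrk1 KO mice on NCD and at 151, 186 and 183 on SSD. WT mice on NCD were thus the highest group for Per2 and the lowest for Zbtb16, without overlap with any other group in either gene. The part of the clock, or of the hour of sampling, in the levels of the members was not tested.

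**Figure D4:**
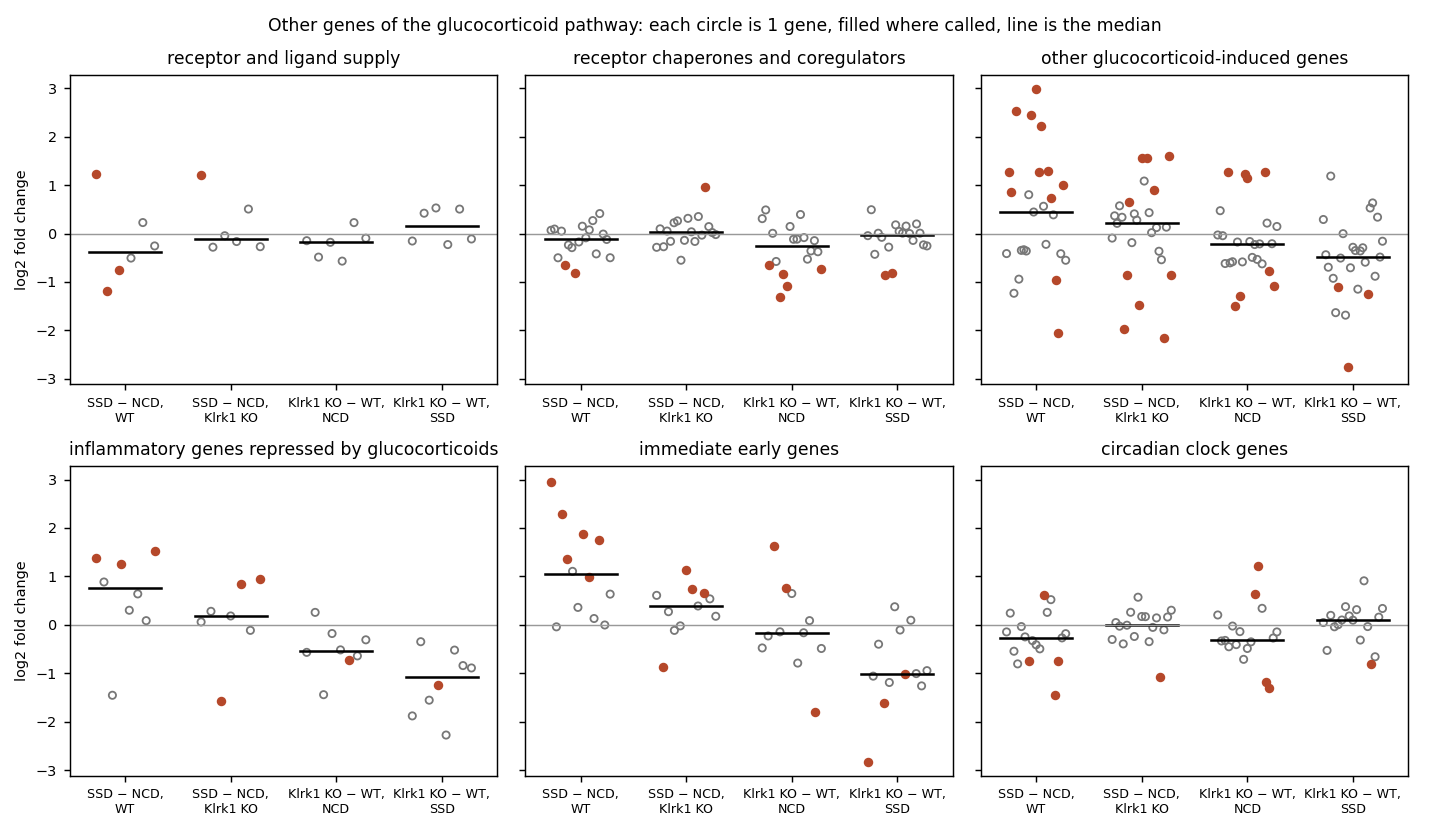
Log2 fold change (y axis) of the tested genes of 6 lists in the 4 comparisons. Each circle is 1 gene, filled where the adjusted p is under 0.05 and the change over 1.5-fold, and the line is the list's median. The chaperone list has 5 filled circles in Klrk1 KO against WT on NCD, all below 0, and the immediate early list has 6 filled circles in SSD against NCD in WT mice, all above 0.

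Markers of several cell types moved with some comparisons. With SSD in WT mice 3 of 6 sinusoidal endothelium markers and 2 of 7 stellate cell markers were called higher, beside 11.9% of all genes. Of 6 hepatocyte markers 2 were called lower on SSD in WT mice and 3 in Klrk1 KO mice, beside 7.32% and 6.6% of all genes. Of 8 macrophage and Kupffer cell markers, 6 were called higher on SSD in WT mice (11.9% of all genes) and 2 lower in Klrk1 KO against WT mice on SSD (1.42% of all genes). Their summed level was 3212 to 3497 normalized counts in WT mice on NCD, 4104 to 7833 in WT mice on SSD, 2798 to 3446 in Klrk1 KO mice on NCD and 3302 to 4252 in Klrk1 KO mice on SSD, and 0 of the 8 were at 0 in all mice. WT SSD replicates 1 and 4 had sums of 7833 and 7669. The part of these cells in the lower Cebpd, Dusp1, Tsc22d3 and Rcan1 on SSD was not tested. On NCD, where Zbtb16 and Arrdc3 differed most between genotypes, the macrophage sums of both genotypes overlapped and 1 of the 8 markers was called lower, beside 2.87% of all genes. Of the 14 T and NK cell markers, whose cells can express Zbtb16, 3 passed the minimum level in Klrk1 KO against WT mice on NCD. Of these, 0 were called in limma, edgeR or DESeq2 or had an unadjusted p under 0.05. Of all genes 2.92% were called higher and 2.87% lower there, so nothing is read from this count. The summed levels of the 14 markers were 165 to 199.7 in WT mice and 192 to 259.5 in Klrk1 KO mice. With SSD in WT mice 6 of these 14 markers passed the minimum level. Trac (0.99, adjusted p = 0.0398) and Il7r (2.08, 0.0261) were called higher and Cd4 (-2.09, 2.62e-05) lower, beside 11.9% and 7.32% of all genes. The median was 0.821, and the summed level went to 134 to 243. Cd4 was a large part of this sum on NCD, with a mean of 102 normalized counts, and its fall to 23.9 offset rises of other markers in the sum. The part of these cells in the level of Zbtb16 was not tested. The annotation has a gene on the opposite strand of 9 of the 10 members, all but Tsc22d3. Whole genes from first to last base were compared, and overlap of their exons was not checked. Whether the authors counted reads by strand is not given in the sources used here. Where exons overlap, reads of such a partner therefore cannot be told apart from those of the member. The exception is Klf9, whose partner Gm56648 ends at base 23118519. Klf9 starts at base 23118590 in the expression table, so they do not overlap at these coordinates.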

How the data were processed

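RNA of whole livers from 16 mice (WT on NCD n = 4, WT on SSD n = 5, Klrk1 KO on NCD n = 4, Klrk1 KO on SSD n = 3) was sequenced as single reads. The authors mapped the reads with STAR to GRCm39, counted them per gene with FeatureCounts on a GENCODE annotation and deposited normalized counts, a signal in which each mouse's read counts are divided by 1 factor. How these factors were computed is not given in the sources used here. The methods name a total RNA library kit and the labels an mRNA kit. Whole reads were recovered from the steps of the values (100% of values within 0.1 of a whole number). The deposited table also gives gene lengths, used for levels per kilobase, and the authors' own comparisons, which were not used.

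The test was limma (3.58.1, R 4.3.3) with a mean-variance trend on log2(normalized count + 1), which understates changes of low genes, over the mice of the groups compared (all 16 for the interaction) and genes with a mean of at least 10. P-values are two-sided and were adjusted by Benjamini-Hochberg over all genes tested. Genes with an adjusted p under 0.05 and over 1.5-fold were called. The test was checked on simulated data. Each mouse is 1 library, so p-values measure the spread between these mice, and comparisons that share a group share its mice. The alternatives were edgeR (4.0.16), DESeq2 (1.42.0), other pseudocounts, minimum levels, scalings and fold limits, a replicate block, 1 model of all 4 groups and leaving out each mouse.

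The members, the lists and the tests were chosen with earlier results of these data known. The text names all 10 members, of each list every called gene where there are at most 6 and otherwise the 3 largest rises and the 3 largest falls, the 5 genes most like Zbtb16 and Nr3c1, and Klrk1. Serpina6, Tat and the values by mouse of single list genes were added after their values were seen. Promoter windows were read from the GRCm39 reference with GENCODE vM39 starts.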

Additional observations from a re-analysis of the deposited data

Results flagged for a closer look

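Sgk1 in Klrk1 KO NCD replicate 1 was at 298.697 normalized counts, and its gap to the next mouse made up 0.841 of the range of that group of 4. Without this mouse the log2 fold change of Sgk1 was 1.09 (adjusted p = 0.00269 in limma's test) for SSD against NCD in Klrk1 KO mice and -1.56 (adjusted p = 0.00214) for Klrk1 KO against WT mice on NCD.

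Cebpd in WT SSD replicate 1 was at 373.325 normalized counts, with a gap of 0.728 of the range of that group of 5. The same mouse was the highest of its group for Sgk1 and Rcan1. Among 30 pairs of a member and a group, these 2 had such a mouse, where chance gives about 1 in 20. WT SSD replicate 1 also stood apart for Lcn2 (3650 normalized counts, next mouse 823) and Atf3 (601, next mouse 240). Its stellate cell marker sum was the highest of its group (13574.5, next mouse 8271) and its hepatocyte marker sum the lowest (1430880). The part of this mouse's state in these values was not tested.

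The effect of SSD differed between the genotypes for a pair of genes. For Zbtb16 the log2 fold change in Klrk1 KO mice minus that in WT mice was -2.626, which is given without a test because its levels chose it. For Arrdc3 the difference was -2.012 on the log2 scale, with an adjusted p of 0.0171 for limma's interaction term.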

How the results depend on the processing

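Over the 10 members, the 5 comparisons and their alternatives other than the fold limits, 910 values kept their direction and their side of the thresholds. Of the rest, 31 lost a call, 10 gained one and 19 changed sign, all 19 of them in values that were not called. This tally includes the values of Zbtb16. For SSD against NCD in Klrk1 KO mice 1 member was called with all 4 groups in 1 model and 1 with a limit of 2-fold, instead of 2. The limit of 2-fold also gave 3 members instead of 4 for SSD against NCD in WT mice. Under it 3 instead of 4 were called for Klrk1 KO against WT on SSD and 5 instead of 6 on NCD. Leaving out 1 mouse at a time gave 3 to 4 members called for SSD against NCD in WT mice, 1 to 3 in Klrk1 KO mice, 1 to 4 for Klrk1 KO against WT on SSD, 6 in every fit on NCD and 1 to 2 for the interaction. These counts include Zbtb16, which has no test of its own, and without it they were 2 to 3, 1 to 3, 1 to 4, 5 in every fit and 0 to 1. With every mouse scaled to the same total, 3491 genes were called higher and 406 lower for SSD against NCD in WT mice, against 1564 and 958. The same scaling gave 2124 and 479 in Klrk1 KO mice against 844 and 852, 52 and 274 for Klrk1 KO against WT on SSD against 93 and 186, and 306 and 392 on NCD against 375 and 369. Under it Nr3c1 (0.33) and Rcan1 (0.036) turned for SSD against NCD in WT mice, Rcan1 (0.041) in Klrk1 KO mice and Nr3c1 (-0.06) for the interaction. With quantile scaling Nr3c1 was at 0.033 in WT mice and -0.002 for the interaction. Without 1 mouse at a time the calls over all genes ranged from 15 to 119 higher and 30 to 328 lower for Klrk1 KO against WT on SSD, from 210 to 526 and 215 to 446 on NCD, and from 11 to 47 and 26 to 138 for the interaction. DESeq2 called 154 genes higher and 515 lower for Klrk1 KO against WT on SSD, and 106 and 248 for the interaction against 38 and 73. With 1 mouse left out at a time, 7 values that were near 0 spanned both signs: for SSD against NCD in WT mice Nr3c1 (-0.057 to 0.043) and Dusp1 (-0.005 to 0.224), in Klrk1 KO mice Nr3c1 (-0.018 to 0.038), Cebpd (-0.1 to 0.228) and Klf9 (-0.012 to 0.165), and for the interaction Nr3c1 (-0.029 to 0.071) and Rcan1 (-0.024 to 0.213). The cause was not tested.

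With the replicate block 4 members were called for SSD against NCD in WT mice, 3 in Klrk1 KO mice, 5 for Klrk1 KO against WT on SSD, 6 on NCD and 2 for the interaction (3, 2, 5, 5 and 1 without Zbtb16), with Sgk1 (-0.996, adjusted p = 0.043) called in addition for Klrk1 KO against WT on SSD, and Cebpd was at -0.053 for SSD against NCD in Klrk1 KO mice. Under this block 1077 genes were higher and 885 lower for SSD against NCD in WT mice, 830 and 856 in Klrk1 KO mice, and 181 genes were higher and 414 lower for Klrk1 KO against WT on SSD, 613 and 516 on NCD, and 11 and 31 for the interaction. The deviations of mice with the same number had correlations of -0.133 to 0.246. What such mice shared besides the number is not given in the sources used here, and these correlations cannot decide it. The groups of 3 to 5 mice limit the precision.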
